A study of Mus musculus with 48 samples.

Results

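The livers of 24 mouse pups whose mothers drank cadmium chloride were examined, 12 on the day of birth and 12 on day 21, to follow how liver RNA changed with age under exposure. They are the libraries whose titles carry the dose of 50 ppm, and they make up 24 of the 48 libraries of the series, with 6 females and 6 males at each age. The other 24 libraries, 12 at each age from pups given 0 ppm, served as controls. All pups were hybrids of C57Bl/6J mothers and CAST/EiJ fathers. Mothers received water with 0 or 50 ppm cadmium chloride (CdCl2) from 4 weeks of age, were paired at 9 weeks with fathers not given cadmium, and drank it up to day 10 after birth (postnatal day 10, PND10). Pups of both ages were therefore exposed through the mother, the newborns (PND0) up to the day of birth. For the day 21 pups the mother's cadmium water had ended at PND10. Pups of a lower dose that the labels mention, 1 ppm, were not analysed here. The sources used here do not say which pups were littermates, so p-values measure the spread between pups and not between litters.

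At birth the mouse liver is still a blood-forming organ. Its hepatocytes make alpha-fetoprotein and a set of imprinted growth genes, while red cells, platelets and granulocytes mature beside them. During the suckling weeks the hepatocytes switch the fetal genes off and turn on the enzymes of drug, amino acid, urea and bile acid metabolism, and the blood-forming cells leave for the marrow. Cadmium is a toxic metal that collects in the liver, where metallothioneins bind it.

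Poly(A) RNA was sequenced from each liver, and the deposited values were reads counted per gene. Totals were 59.0 to 82.1 M counts in exposed newborns and 57.5 to 91.4 M in exposed day 21 pups. Levels are given as CPM (counts per 1 M), counts scaled to a common library size by TMM, which corrects for differences in RNA composition. They are not corrected for gene length, so levels are compared between livers and not between genes. Albumin RNA (Alb), which marks hepatocytes, lay between 56300 and 131000 CPM in all 24 exposed livers. In 5 newborn libraries the summed skeletal muscle or pancreas markers reached at least 50 CPM. Exposed females 13 (muscle, 419 CPM) and 18 (pancreas, 97.9 CPM) were among them. The summed genes of fatty acid oxidation lay under 10000 CPM in 6 newborn libraries, which included exposed male 8 (7232 CPM) and again exposed female 18 (7386 CPM). In bulk tissue, fewer cells of a type and less RNA per cell cannot be told apart.

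Exposed livers changed broadly between birth and day 21. Drug-metabolising enzymes such as Cyp2c29 rose, in its case from below 1 CPM to a median of 329 CPM, and fetal genes such as Afp and the neonatal stefins fell by large factors. Of 19811 genes tested, 14569 (73.5%) differed between the ages with an edgeR adjusted p under 0.05, 7264 (36.7%) of them higher at day 21 and 7305 (36.9%) lower. With a change of at least 2-fold also required, 6487 (32.7%) remained, 2544 (12.8%) higher and 3943 (19.9%) lower. The median log2 change over all genes tested was -0.003. This split rests on the scaling: TMM factors were 1.113 to 1.257 in exposed newborns and 0.813 to 0.913 in exposed day 21 livers. With library totals alone the median moved to -0.442 and only 23.8% of the called genes were higher, against 49.9%. Without the newborn libraries that carried muscle or pancreas markers, 14338 genes were called, and without those low in fatty acid oxidation genes, 14490.

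The same interval in control pups gave 15381 called genes (77.6%), 7418 (37.4%) higher and 7963 (40.2%) lower, with a median log2 change of -0.04. At 2-fold or more there were 7490 (37.8%), 2763 (13.9%) higher and 4727 (23.9%) lower. The exposed and control comparisons share no library. Across genes, which are not independent replicates, the log2 changes of exposed and control livers had a Pearson r of 0.913, and 87.7% had the same sign. The slope of exposed on control changes was 0.804 by total least squares and 0.748 by least squares. Called in both were 12959 genes, 12724 with the same sign and 235 with opposite signs. The median size of the log2 change was 0.618 in exposed and 0.719 in control livers.

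The difference between the exposed and the control change was tested directly, as an interaction in the same fit. It was called for 5261 genes (26.6%), 3299 (16.7%) with a more positive change in exposed pups and 1962 (9.9%) with a more negative one. A difference of 2-fold or more was called for 1675 genes (8.45%), 1426 (7.2%) and 249 (1.26%) in these directions. With library totals alone 73.4% of the called genes were in the positive direction, against 62.7%. Among the called genes, 2156 fell in both groups and fell less in exposed pups, against 271 that fell more. A further 1325 rose in both and rose less under exposure, against 475 that rose more. Signs were opposite for the rest, with 668 rising in exposed and falling in control pups, and 366 the reverse. The interaction equals the cadmium difference at PND21 minus that at PND0, and the gap between the dose means was wider at PND21 for 4445 of the 5261 genes and wider at PND0 for 816. The count was 5522 without the newborn libraries with muscle or pancreas markers and 5160 without those low in fatty acid oxidation genes.

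To place each liver, its log2 profile over all genes tested was projected on the line from the mean control newborn (0) to the mean control day 21 liver (1), with each control left out of its own mean. Exposed newborns lay from -0.047 to 0.034, with a median of 0.002. Control newborns lay from -0.049 to 0.045. Exposed day 21 livers lay at 0.673 at the lowest (male 30), 0.761 in the median and 0.895 at the highest (female 41). Control day 21 livers lay between 0.962 and 1.031. So the newborn groups overlapped, and all 12 exposed day 21 livers lay short of all 12 controls, with a wider spread (SD 0.069 against 0.023, n = 12 each). Females and males were mixed along the range, with exposed females from 0.696 to 0.895 and exposed males from 0.673 to 0.849. Each gene counts by the square of its control change, so the genes that changed most in controls weigh most. A position is thus not an even shortfall over all genes. These positions are a description and carry no test.

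**Figure D1:**
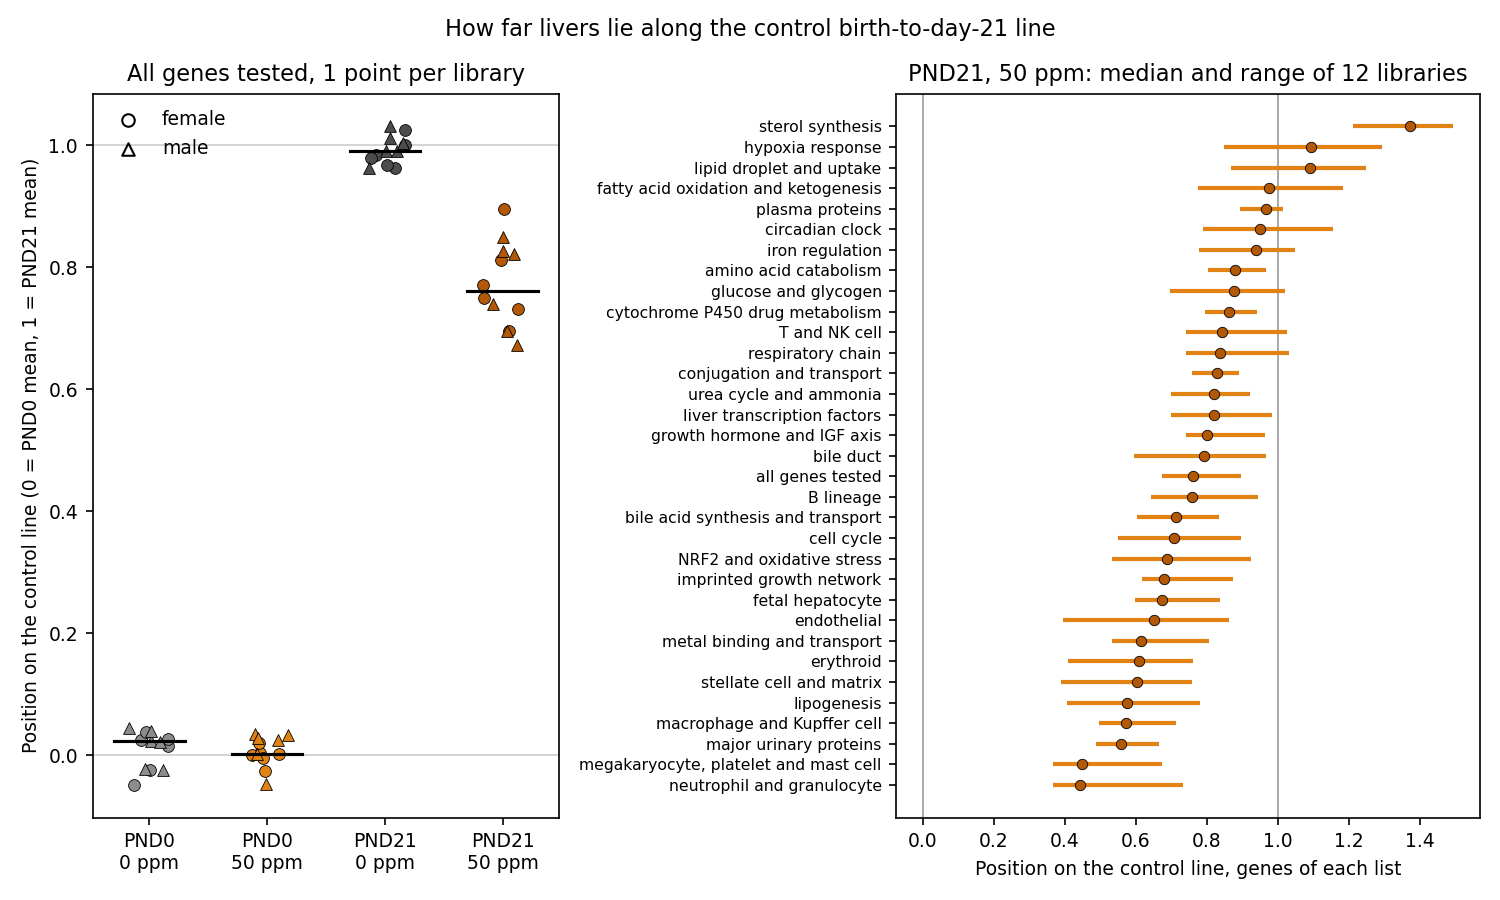
Left, position of each of 48 libraries on the control line from birth (0) to day 21 (1) over 19811 genes, by age and dose, with circles for females, triangles for males and bars for medians. Right, for the 12 exposed day 21 livers, the median (point) and range (line) of the same measure over the genes of each list. Over all genes tested, exposed newborns sit near 0 with the controls and exposed day 21 livers sit between 0.673 and 0.895. The lists run from neutrophil genes (median 0.442) to sterol synthesis (median 1.373).

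Taken list by list, the exposed day 21 livers were not equally far along the control line. Plasma protein genes had reached a median position of 0.968, amino acid catabolism 0.879 and cytochrome P450 genes 0.863. Fatty acid oxidation genes stood at 0.975 and glucose genes at 0.877. Several other hepatocyte and metabolic lists were lower, with the respiratory chain at 0.837, conjugation and transport at 0.829 and the urea cycle at 0.821. Lower still were bile acid genes at 0.712, NRF2 genes at 0.689, fat synthesis at 0.575 and major urinary proteins at 0.559. The median log2 changes of NRF2 genes were nonetheless close, 0.64 in exposed and 0.71 in control pups, as were those of fat synthesis, 1.19 and 1.27. Fetal hepatocyte genes stood at 0.673, the imprinted network at 0.680 and erythroid genes at 0.609. Neutrophil and megakaryocyte genes stood at 0.442 and 0.447. Past the control endpoint lay sterol synthesis at 1.373, hypoxia genes at 1.092 and lipid droplet genes at 1.091. The hypoxia and lipid droplet ranges, 0.847 to 1.293 and 0.867 to 1.247, reached below 1. Exposed newborns did not start at 0 on every list. Their medians were 0.391 for iron, 0.377 for the respiratory chain, 0.17 for hypoxia, -0.17 for fat synthesis and -0.487 for endothelial genes. A day 21 position on such a list is thus not the distance moved since birth.

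**Figure D2:**
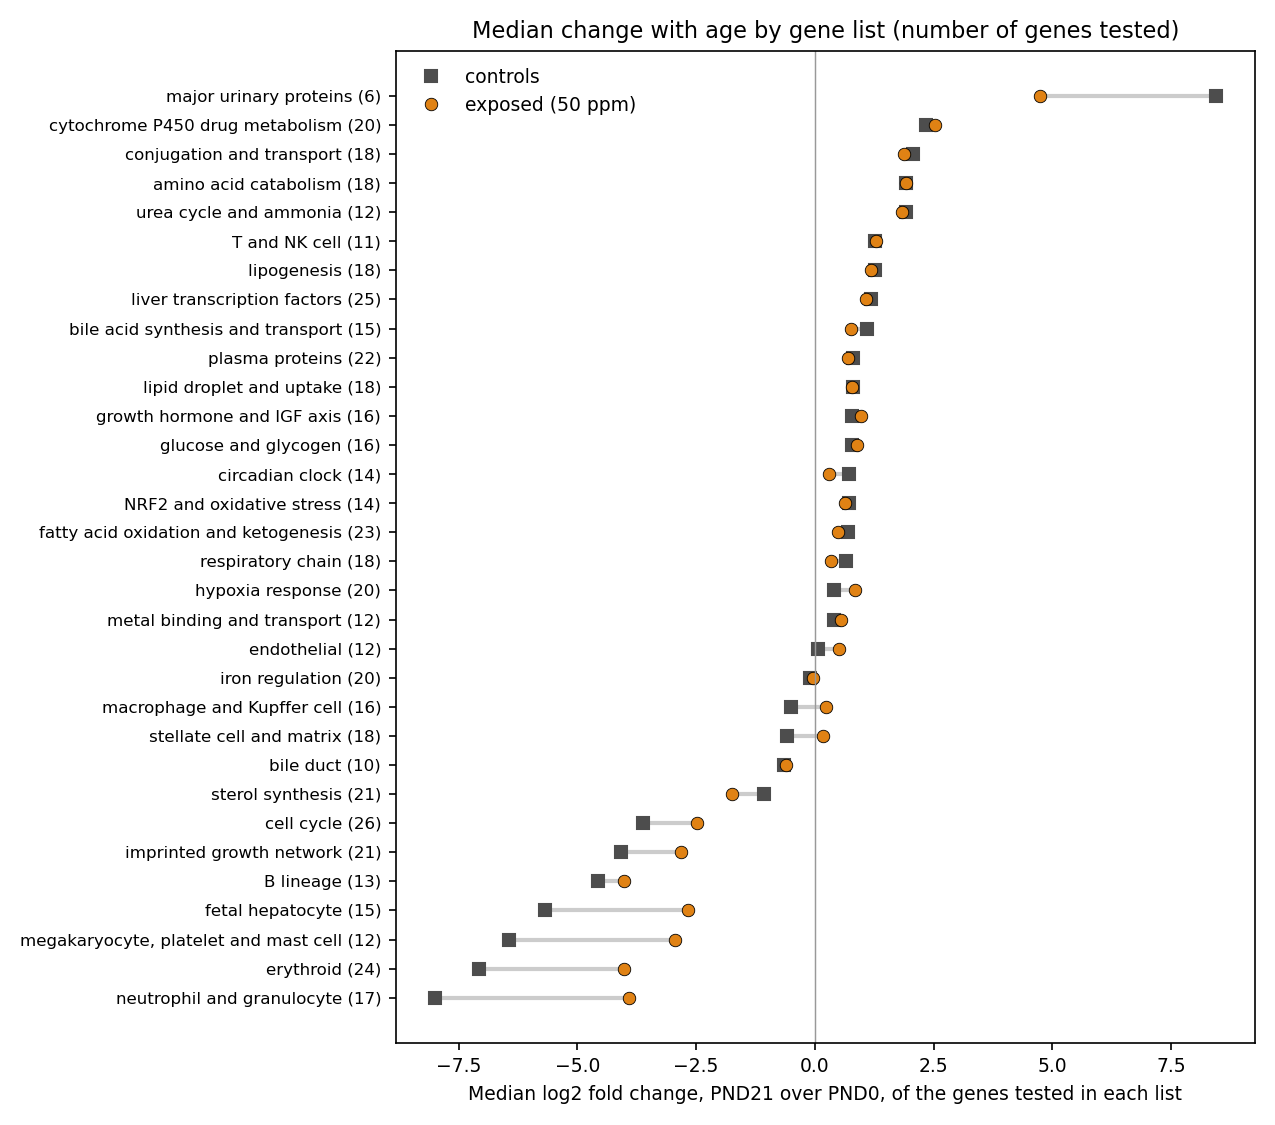
Median log2 fold change from PND0 to PND21 over the genes tested in each list, for controls (grey squares) and exposed pups (orange circles), ordered by the control median, with the number of genes tested in brackets. The blood cell and fetal lists fell less in exposed livers (neutrophil -3.92 against -8.0), amino acid catabolism nearly coincides (1.91 against 1.93), bile acid genes (0.76 against 1.09) and the respiratory chain (0.34 against 0.65) rose less, and sterol synthesis fell further (-1.74 against -1.07).

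The fetal hepatocyte programme fell in exposed livers, and fell further in controls. Afp encodes alpha-fetoprotein, the albumin of the fetal liver. Its RNA was at 14200 CPM at the lowest, 17400 in the median and 22100 at the highest in exposed newborns, and at 33.2, 129 and 602 CPM in exposed day 21 livers. Control livers went from a median of 16300 CPM to 10.2 CPM, with 37.4 CPM the highest at day 21. The ages did not overlap, and 1 of 12 exposed livers reached into the control range at day 21. The log2 change was -6.67 ± 0.39 in exposed and -10.30 ± 0.45 in control pups, a difference of 3.63 ± 0.45 (edgeR adjusted p = 1.7e-08). Here and below ± is an approximate standard error, back-calculated from the edgeR test. It is the fitted change, before edgeR damps low counts, divided by the square root of the F statistic. The values for the age changes therefore need not combine into that of their difference. The 300 bases around the start of Afp and of Alb, neighbours in the genome that moved in opposite directions with age, are shown for these flagship genes of the fetal and the mature hepatocyte. Capitals mark GTTAAT, a half-site of the hepatocyte factor HNF1, searched on both strands. It occurred 1 time in each, and at least 1 time in 7.1% of 32851 promoter windows of this length. The windows are RefSeq sequence of GRCm38.p6 on the plus strand, at chr5:90490464-90490763 for Afp and chr5:90460620-90460919 for Alb.
Afp: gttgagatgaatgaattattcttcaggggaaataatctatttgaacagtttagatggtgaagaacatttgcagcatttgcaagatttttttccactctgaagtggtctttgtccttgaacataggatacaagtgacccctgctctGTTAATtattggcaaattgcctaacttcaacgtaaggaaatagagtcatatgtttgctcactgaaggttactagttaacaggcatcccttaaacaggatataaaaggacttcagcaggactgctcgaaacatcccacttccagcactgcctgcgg
Alb: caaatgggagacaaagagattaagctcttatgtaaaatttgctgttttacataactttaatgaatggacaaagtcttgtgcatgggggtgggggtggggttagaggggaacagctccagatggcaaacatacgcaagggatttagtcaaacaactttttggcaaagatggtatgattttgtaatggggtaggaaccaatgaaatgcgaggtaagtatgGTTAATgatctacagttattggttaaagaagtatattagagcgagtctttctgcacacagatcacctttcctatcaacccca

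Of the 15 fetal hepatocyte genes, 14 fell in exposed livers and none rose, against 36.9% of all genes lower, with a median log2 change of -2.66. In controls all 15 fell, against 40.2% of all genes, with a median of -5.68. The difference was positive for 11, against 16.7% of all genes, and negative for none. H19, an imprinted non-coding RNA, was at 11000, 12000 and 14500 CPM (lowest, median and highest) in exposed newborns and at 380, 2220 and 4560 CPM in exposed day 21 livers. Control livers at day 21 lay between 25.4 and 405 CPM, so the ranges met only at 1 exposed liver. Its change was -2.66 ± 0.32 in exposed and -7.07 ± 0.39 in control pups (difference 4.40 ± 0.45, adjusted p = 1.6e-10). Gpc3, a cell surface proteoglycan of fetal liver, went from a median of 354 to 62.6 CPM under exposure and from 422 to 17.8 CPM in controls, with no overlap between the doses at day 21. Sall4, a transcription factor of hepatoblasts and stem cells, kept a median of 3.05 CPM at day 21 under exposure, against 0.211 CPM in controls. Its difference was 3.71 ± 0.25 (adjusted p = 1.5e-15). Cd24a, a surface protein of progenitor cells, kept 22.3 CPM against 3.94. Some fetal RNAs were nearly gone in both. Igf2bp1, which binds Igf2 RNA, had a log2 change of -7.88 ± 0.30 under exposure and -7.69 ± 0.30 in controls, and its difference missed the threshold (-0.19 ± 0.52, adjusted p = 0.82).

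**Figure D3:**
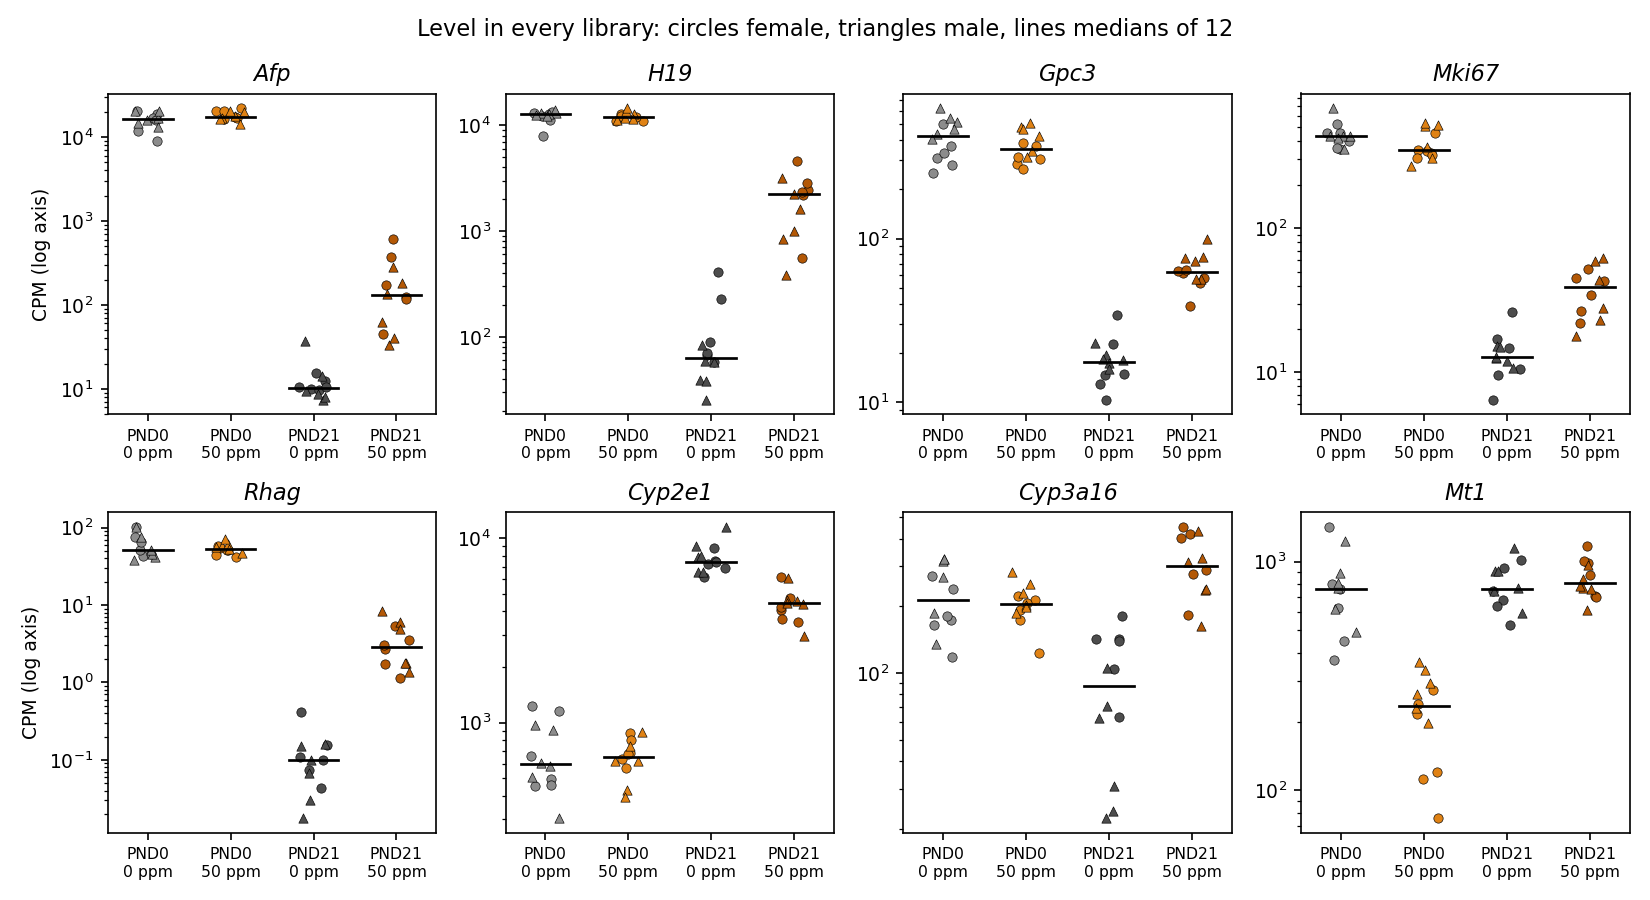
CPM (log axis) of 8 genes in each of the 48 libraries by age and dose, with circles for females, triangles for males and bars for medians of 12. At day 21 the exposed medians lie above the control medians for Afp, H19, Gpc3, Mki67 and Rhag, with no overlap for Gpc3 and Rhag, and below them for Cyp2e1, and overlap them for Mt1, for which it is the exposed newborns that lie low.

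The imprinted growth network showed the same direction. Of its 21 genes, 20 fell in exposed livers and 20 in controls (36.9% and 40.2% of all genes), and 12 had a positive and 1 a negative difference (16.7% and 9.9% of all genes). The study's title names Zac1, now called Plagl1, a zinc finger factor of this network. Plagl1 lay at 47.8, 57.7 and 60 CPM in exposed newborns and at 3.37, 5.13 and 8.86 CPM in exposed day 21 livers, with no overlap. Its change was -3.39 ± 0.12 in exposed and -3.93 ± 0.12 in control pups, a difference of 0.54 ± 0.16 (edgeR adjusted p = 0.0085). The growth factor Igf2 differed by far more: it fell from 138 to 2 CPM in the median under exposure and from 137 to 0.092 CPM in controls (difference 3.85 ± 0.53, adjusted p = 1.6e-07). Dlk1, a fetal membrane protein, fell from 134 to 1.59 CPM against 94.6 to 0.126 CPM, and its day 21 ranges did not overlap between the doses. Mest, an imprinted hydrolase, fell from 159 to 21.9 CPM against 143 to 6.46 CPM. Meg3, a non-coding RNA of the Dlk1 region, fell by 4.32 and 4.77, and its difference of 0.46 ± 0.22 did not pass (adjusted p = 0.12).

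Among genes of the mature hepatocyte, the plasma proteins mostly rose in both groups. Of the 22 plasma protein genes, 17 rose and 1 fell under exposure (36.7% of all genes rose), against 16 and 2 in controls (37.4% rose). The change differed upwards for 2 and downwards for 2 (16.7% and 9.9% of all genes). Alb was at 56300, 61900 and 82000 CPM in exposed newborns and 103000, 116000 and 131000 CPM at day 21, where controls had a median of 119000. Its changes of 0.89 ± 0.08 and 1.02 ± 0.08 did not differ beyond their error (difference -0.13 ± 0.11, adjusted p = 0.39). Scaled by library totals alone, 13 plasma protein genes rose and 6 fell under exposure. Hemopexin (Hpx), which binds free haem, rose further in exposed livers, by 2.43 ± 0.12 against 1.69 ± 0.11 (adjusted p of the difference 0.000335). Apoc3, an apolipoprotein that slows triglyceride clearance, rose less, by 3.49 ± 0.21 against 4.59 ± 0.22, though its day 21 medians were 1110 and 1010 CPM. The newborn medians were 93 CPM under exposure and 38.3 CPM in controls.

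All 18 genes of amino acid catabolism rose in both groups, by medians of 1.91 and 1.93, and 2 of them differed. Of all genes 36.7% rose under exposure and 37.4% in controls, and 26.6% differed. Kmo, of tryptophan breakdown, rose by 2.51 ± 0.10 and 2.64 ± 0.10. The glucose list rose for 11 of 16 genes and fell for 1, with no gene called different at the edgeR threshold. Khk, the fructose kinase, rose from 27.3 to 365 CPM under exposure and from 29.9 to 429 CPM in controls. In the urea cycle and ammonia list 9 of 12 genes rose and 1 fell. Cps1, its entry enzyme, rose by 1.49 ± 0.21 against 1.68 ± 0.21 (adjusted p of the difference 0.68). The 2 members that differed take part in ammonia and ornithine handling near the central vein. Glul, glutamine synthetase, fell from 715 to 534 CPM under exposure and rose from 598 to 935 CPM in controls (difference -1.0 ± 0.18, adjusted p = 2.9e-05), with no overlap at day 21. Oat, ornithine aminotransferase, reached 403 CPM against 930 CPM, again with no overlap between the doses.

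Drug-metabolising genes turned on strongly with age. In the P450 list 19 of 20 genes rose under exposure and none fell, by a median of 2.52 (36.7% of all genes rose). In controls 17 rose and 2 fell (37.4% of all genes rose). The change differed upwards for 4 and downwards for 3, not far from the 16.7% and 9.9% over all genes. Cyp2c29 was at most 0.305 CPM in exposed newborns and lay at 191, 329 and 432 CPM at day 21, a change of 11.09 ± 0.24 against 11.23 ± 0.24 in controls. Cyp2e1, the ethanol-inducible P450, rose from 655 to 4440 CPM under exposure and from 594 to 7450 CPM in controls. Its day 21 range of 2950 to 6130 CPM lay below all controls (6170 to 11500 CPM), and the changes differed by -0.74 ± 0.23 (edgeR adjusted p = 0.013). The neonatal and fetal form Cyp3a16 went the other way: it rose by 0.57 ± 0.24 under exposure, from 204 to 300 CPM, and fell by 1.37 in controls, from 211 to 87.5 CPM (difference 1.94 ± 0.35, adjusted p = 2.2e-05). The related Cyp3a41a stood at 32.2 and 44 CPM under exposure, with ages that overlapped and a change that missed the threshold (0.48 ± 0.26, adjusted p = 0.087), and fell from 51.8 to 14.1 CPM in controls. Reads of these close relatives may be shared. Conjugation and transport genes rose for 18 of 18 under exposure, and 1 differed upwards and 4 downwards (16.7% and 9.9% of all genes). Aldh1a1, a retinal dehydrogenase, reached 93.3 CPM under exposure against 228 CPM, with no overlap.

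Among 25 liver transcription factors 22 rose in exposed livers and none fell, and 24 rose in controls (36.7% and 37.4% of all genes rose). A more positive change under exposure was called for 2 and a more negative one for 7 (16.7% and 9.9% of all genes). Onecut1, also called HNF6, was at 4.27, 11 and 30.2 CPM in exposed newborns and 2.37, 7.22 and 12.9 CPM at day 21, so the ages overlapped (change -0.68 ± 0.32, adjusted p = 0.055). In controls it rose by 1.18 ± 0.32, and the difference was -1.86 ± 0.46 (adjusted p = 0.0017). The pioneer factor Foxa1 rose by 0.44 ± 0.14 against 1.53 ± 0.14. Nr1h4, the bile acid receptor FXR, rose by 1.08 ± 0.07 against 1.54 ± 0.07. Zhx2, which silences Afp and other fetal genes after birth, rose by 1.96 ± 0.10 under exposure and by 1.34 ± 0.10 in controls, from medians of 3.83 to 15.7 CPM and 5.36 to 12.6 CPM. Its day 21 ranges overlapped between the doses.

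Bile acid genes rose for 12 of 15 and fell for 1 under exposure (36.7% and 36.9% of all genes). A smaller or reversed change was called for 5, where 9.9% of all genes had a more negative change. With library totals alone 7 rose and 1 fell. Cyp7a1, the rate-limiting enzyme of bile acid synthesis and named here outside the rule for its role, fell under exposure from 134 to 47.1 CPM (-0.99 ± 0.37, adjusted p = 0.015), with ages that overlapped. In controls its medians were 91.5 and 168 CPM, and the difference was -1.71 ± 0.53 (adjusted p = 0.012). Cyp7b1, of the alternative pathway, reached 9.62 CPM against 31 CPM with no overlap at day 21 (difference -1.92 ± 0.28, adjusted p = 6e-07). The bile acid uptake carrier Slc10a1 rose by 0.35 ± 0.08 against 0.90 ± 0.08.

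Sterol synthesis fell in exposed livers further than in controls. Of 21 genes 18 fell and none rose under exposure, against 14 that fell and 3 that rose in controls (36.9% and 40.2% of all genes fell). A more negative change under exposure was called for 16, against 9.9% of all genes, with a median difference of -0.78. In the females alone, with fewer libraries, 4 of these differences passed. The count over all genes also fell, from 5261 to 2711 in females and 2845 in males. The exposed change of this list was more positive in females than in males by a median of 0.79, against 0.026 over all genes tested. No gene of the list passed that sex test. Newborn male 8 had the highest summed level of the exposed newborns, 3591 CPM against a median of 1775 CPM. Its part in the result was not tested. Idi1, of the isoprenoid steps, was at 6.03, 12.5 and 30.1 CPM in exposed newborns and at 0.335, 0.698 and 1.59 CPM at day 21. Control day 21 livers held 2.23 to 6.78 CPM, with no overlap, and the difference was -2.53 ± 0.37 (adjusted p = 6e-07). Cyp51, lanosterol demethylase, fell to 5.06 CPM against 14.7 CPM, again without overlap. Insig1, which holds the sterol sensor back, fell by 1.74 ± 0.26, with 1 exposed newborn as high as 587 CPM against a median of 92.1.

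In the fat synthesis list 15 of 18 genes rose and 1 fell under exposure, against 13 and 1 in controls (36.7% and 37.4% of all genes rose). The change differed upwards for 3 and downwards for 1 (16.7% and 9.9% of all genes). Over the list, exposed day 21 livers stood at 0.405, 0.575 and 0.781 (lowest, median and highest) on the control line, against 0.781, 0.987 and 1.312 in controls. Genes with large control changes weigh most in this position. The median log2 change of the list was 1.19 under exposure and 1.27 in controls. Acaca, acetyl-CoA carboxylase, reached a median of 109 CPM at day 21 against 64.2 CPM in controls, and its ages overlapped under exposure. The difference was 0.95 ± 0.25 (adjusted p = 0.0034). Elovl5, of polyunsaturated fatty acid elongation, rose by 2.72 ± 0.15 against 1.99 ± 0.15. Elovl3, another elongase, stayed low, at 0.266 CPM against 3.59 CPM, with no overlap at day 21 (difference -4.19 ± 0.80). In the lipid droplet and uptake list 14 of 18 genes tested rose and 2 fell under exposure, against 11 and 6 in controls, with 5 positive differences and 1 negative, not far from the 16.7% and 9.9% over all genes. The fatty acid receptor Cd36 was at 44.4, 64 and 81.3 CPM in exposed newborns and at 82.1, 102 and 135 CPM at day 21. It thus rose by 0.64 ± 0.08, while controls fell by 0.33 (difference 0.97 ± 0.11, adjusted p = 2.3e-09), and the day 21 doses did not overlap. Pparg, the adipogenic nuclear receptor, rose by 0.72 ± 0.12 and fell by 0.60 in controls. Apoa4, an apolipoprotein of lipid export, went from 328 to 4540 CPM under exposure and from 209 to 572 CPM in controls (difference 2.52 ± 0.69, adjusted p = 0.0049). Fatty acid oxidation genes rose for 14 of 23 and fell for 1, against 14 and 2, and 2 differed in each direction. With library totals alone 8 rose and 6 fell. Without the 6 newborn libraries low in this list, 14 rose and 1 fell under exposure, and 4 differed upwards and 2 downwards. Those libraries were picked by the sum of this same list, and more of them were controls than exposed. Leaving them out raises the newborn level by design, more so in controls, so the recount is no check on the list. The hepatokine Fgf21, from the same list, rose from 1.34 to 22 CPM under exposure and from 1.52 to 10.2 CPM in controls (difference 1.65 ± 0.61, adjusted p = 0.040).

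Genes of growth signalling did not move as one. Igf1, the growth factor that takes over from Igf2 after birth, was at 10.5, 21.6 and 40.4 CPM in exposed newborns and at 315, 517 and 792 CPM at day 21. Its rises of 4.47 ± 0.24 and 4.12 ± 0.23 did not differ beyond their error (0.35 ± 0.29, adjusted p = 0.41). Of 4 binding proteins in the list, 3 differed upwards. Igfbp3, the main carrier of Igf1 in blood, rose by 2.19 ± 0.08 to 164 CPM, against 0.76 ± 0.08 and 79.4 CPM in controls, with no overlap (adjusted p = 8.5e-14). Igfbp2, high in fetal liver, stood at 1310 and 1590 CPM under exposure (0.27 ± 0.24, adjusted p = 0.31) and fell from 2000 to 565 CPM in controls. Igfbp1, a carrier that responds to fasting, stood at 2560 and 2590 CPM under exposure and fell from 1810 to 802 CPM in controls (difference 1.26 ± 0.37, adjusted p = 0.0083). Igfbp4, which holds Igf1 back, rose by 1.09 ± 0.09 and 1.29 ± 0.09, and its difference did not pass (-0.20 ± 0.12, adjusted p = 0.26). Igf1r, the receptor, fell by 0.85 and by 1.54. Over this list of 16, 10 rose and 1 fell under exposure (36.7% and 36.9% of all genes). Its differences were positive for 5 and negative for 1 (16.7% and 9.9% of all genes).

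Major urinary proteins, pheromone carriers that appear with maturation under growth hormone, rose less. Their RNAs are near copies of each other, so reads may be split between them. Of 10 genes in the list 6 had enough reads to be tested. Of these 4 rose under exposure and 6 in controls (36.7% and 37.4% of all genes), and 4 had a more negative change (9.9% of all genes). Mup3 was at most 0.122 CPM in exposed newborns and lay at 9.12, 26.1 and 49 CPM at day 21, against 29.5, 134 and 872 CPM in controls. Its rises were 9.64 ± 0.46 and 12.91 ± 0.49 (difference -3.27 ± 1.03, adjusted p = 0.014). Mup10 had 0 counts in all 12 exposed day 21 livers, against 1490 counts in the 12 controls. Set against a floor of 3 counts over the group, it was at least 530-fold higher in control livers at day 21, although the control range of 0 to 11.6 CPM included livers at 0. Mup20 reached 1.06 CPM against 4.91 CPM, and its difference missed the threshold (-0.32 ± 1.32, adjusted p = 0.93).

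Blood cell markers fell in exposed livers, and fell less than in controls. All 24 erythroid genes tested fell in both groups, by a median log2 change of -4.02 under exposure and -7.07 in controls, and 21 had a positive difference and none a negative one. The median stood at -0.003 and -0.04 over all genes tested, of which 36.9% and 40.2% fell and 16.7% had a positive difference. Rhag, a red cell membrane channel, was at 42, 53.5 and 71.1 CPM in exposed newborns and at 1.13, 2.87 and 8.29 CPM at day 21. Control day 21 livers held at most 0.414 CPM, so the doses did not overlap (difference 5.08 ± 0.43, adjusted p = 7.8e-13). Slc4a1, the band 3 anion exchanger, fell from 890 to 43.7 CPM against 1070 to 4.13 CPM. Alas2, the first enzyme of erythroid haem synthesis, fell from 260 to 47.5 CPM against 237 to 26 CPM (difference 1.06 ± 0.26, adjusted p = 0.0014), and its day 21 ranges overlapped. Klf1, the erythroid transcription factor, fell by 3.48 and by 3.60, which did not pass as a difference (difference 0.12 ± 0.23, adjusted p = 0.76). Without the newborn libraries low in fatty acid oxidation genes, 17 erythroid differences were called.

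Of 12 megakaryocyte, platelet and mast cell genes tested, 10 fell and 1 rose under exposure, and all 12 fell in controls (36.9% and 40.2% of all genes fell). In this list 11 differed upwards and 1 downwards (16.7% and 9.9% of all genes). Ppbp, a platelet chemokine, fell from 47.7 to 7.09 CPM against 47.4 to 0.537 CPM, with no overlap at day 21 (difference 3.71 ± 0.23, adjusted p = 2.1e-16). Cpa3, a protease of mast cells and basophils, was as high at day 21 as at birth under exposure. Its levels were 0.453, 0.906 and 1.66 CPM at birth and 0.389, 0.879 and 2.38 CPM at day 21, while the 12 control day 21 livers together had 2 counts. The gene that rose was Vwf, the clotting factor made by platelets and endothelium, named here as the single exception. It went from 72.6 to 164 CPM under exposure and from 72 to 37.3 CPM in controls. Kit, the stem cell factor receptor, was the member with the more negative change (-0.49 ± 0.17, adjusted p = 0.029).

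Neutrophil and granulocyte genes fell for 16 of 17 under exposure, by a median of -3.92, and for all 17 in controls, by -8.0. All 17 differences were positive. Of all genes 36.9% fell under exposure, 40.2% fell in controls and 16.7% had a positive difference. Mpo, myeloperoxidase, was at 264, 329 and 476 CPM in exposed newborns and 2.73, 13 and 18.4 CPM at day 21, against 0.256, 0.645 and 1.01 CPM in control day 21 livers. Every exposed day 21 liver was thus above every control (difference 4.12 ± 0.31, adjusted p = 8.2e-14). The eosinophil granule gene Epx stood at 1.69 and 1.98 CPM under exposure, with a change that did not pass (0.33 ± 0.43, adjusted p = 0.50), and fell from 2.33 to 0.0159 CPM in controls. Prg2, also of eosinophil granules, kept 5.04 CPM against 0.102 CPM. All 13 B lineage genes fell in both groups and 11 differed upwards. Rag1, the recombinase of developing lymphocytes, kept 0.529 CPM against 0.11 CPM at day 21. T and NK cell genes moved both ways, with 7 of 11 rising and 3 falling under exposure and 7 and 4 in controls. Their 2 positive differences lay near the 16.7% over all genes.

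Dividing-cell genes fell for 26 of 26 in both groups (36.9% and 40.2% of all genes fell), by a median of -2.47 under exposure and -3.62 in controls. A positive difference was called for 23, against 16.7% of all genes, and a negative one for none. Mki67, the proliferation marker, was at 269, 348 and 539 CPM in exposed newborns and at 17.8, 38.9 and 62.3 CPM at day 21, while control day 21 livers held 6.48 to 26.3 CPM. The changes were -3.34 ± 0.19 and -5.02 ± 0.21 (difference 1.69 ± 0.25, adjusted p = 9.7e-07), and the day 21 doses overlapped. Rrm2, the nucleotide reductase subunit of DNA synthesis, kept 51 CPM against 12.7 CPM with no overlap (difference 2.29 ± 0.21, adjusted p = 4.6e-12). Mcm2, of the replicative helicase, differed by 0.80 ± 0.13 (adjusted p = 3.1e-06). The difference of Mcm7, of the same complex, was 0.13 ± 0.09 and did not pass (adjusted p = 0.33). These genes are read in every dividing cell type. The summed erythroid genes were at 639 to 2575 CPM in exposed and 610 to 974 CPM in control day 21 livers, and the summed neutrophil genes at 70.7 to 367 and 15.9 to 76.4 CPM. Their part in the cell cycle result was not tested.

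Marker lists of resident non-parenchymal cells were also read. In the macrophage and Kupffer cell list of 16, 9 genes rose and 2 fell under exposure, against 4 and 10 in controls. All 16 had a positive difference, by a median of 0.77. The shares over all genes were 36.7% and 36.9% under exposure, 37.4% and 40.2% in controls and 16.7% for positive differences. The exposed rises depend on the scaling, since with library totals alone 5 rose and 8 fell, while the 16 positive differences held. Clec4f, specific to Kupffer cells, rose from 57.1 to 151 CPM under exposure (1.41 ± 0.07) and from 75.9 to 121 CPM in controls (0.71 ± 0.07). Marco, a scavenger receptor, stood at 29.8 and 36.7 CPM under exposure and fell from 36.8 to 7.53 CPM in controls, with no overlap at day 21 (difference 2.48 ± 0.19, adjusted p = 1e-13). Endothelial genes rose for 9 of 12 and fell for 1 under exposure, against 5 and 2, and 4 differed upwards while 8 did not pass. Pecam1, the endothelial adhesion molecule, rose by 0.69 ± 0.07 and had a control change of 0.01 ± 0.07. Under library totals 5 endothelial genes rose and 4 fell. Of 18 stellate cell and matrix genes 8 rose and 3 fell, against 4 and 10 in controls, and 10 differed upwards and none downwards. In the females alone, with fewer libraries, 4 differed. Postn, a matrix protein of activated fibroblasts, reached 123 CPM against 44.2 CPM with no overlap, and Col3a1, a fibrillar collagen, reached 486 CPM against 283 CPM. Bile duct genes rose for 3 of 10 and fell for 5 in both groups, and 1 differed while 9 did not pass. Among lists of other organs, none of 9 muscle and 3 gut genes tested differed, while 1 of 2 kidney and adrenal genes and 1 of 3 pancreas genes did.

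Metallothioneins rose under exposure, from a low start. Mt1 was at 75.6, 234 and 363 CPM in exposed newborns and at 617, 809 and 1170 CPM in exposed day 21 livers. Control livers lay at 373, 762 and 1420 CPM at birth and 530, 758 and 1140 CPM at day 21. All exposed newborns were thus below all control newborns, and the doses overlapped at day 21. The changes were 1.93 ± 0.19 and 0.06 ± 0.19 (difference 1.88 ± 0.27, edgeR adjusted p = 3.7e-07). Mt2 moved with it, from 188 to 597 CPM under exposure and from 609 to 465 CPM in controls (difference 2.09 ± 0.34, adjusted p = 4.1e-06). Because both genes moved together, their promoters are shown, with the cores of the metal response element in capitals, searched as TGCACNC and TGCGCNC on both strands. Mt1 held 3 matches and Mt2 4, where 25.7% of 32851 windows of this length held at least 1 and 1.97% at least 3. The windows are RefSeq sequence of GRCm38.p6 on the plus strand, at chr8:94178839-94179138 for Mt1 and chr8:94172368-94172667 for Mt2.
Mt1: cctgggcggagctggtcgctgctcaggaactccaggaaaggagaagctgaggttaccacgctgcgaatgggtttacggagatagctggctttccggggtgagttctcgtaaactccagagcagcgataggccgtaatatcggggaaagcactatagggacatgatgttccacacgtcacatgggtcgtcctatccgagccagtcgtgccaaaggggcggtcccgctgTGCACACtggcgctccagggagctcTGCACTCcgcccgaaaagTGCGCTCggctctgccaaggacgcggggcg
Mt2: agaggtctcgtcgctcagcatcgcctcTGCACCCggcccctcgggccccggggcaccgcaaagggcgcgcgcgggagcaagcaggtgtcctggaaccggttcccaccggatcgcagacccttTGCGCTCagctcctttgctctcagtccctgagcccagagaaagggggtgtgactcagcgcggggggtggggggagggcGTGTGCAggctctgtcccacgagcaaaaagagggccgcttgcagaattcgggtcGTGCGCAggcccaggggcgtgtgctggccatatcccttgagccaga

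Other metal genes moved in both directions. Of 12 in the list, 9 rose and 2 fell under exposure, against 7 and 2 in controls, with 6 positive and 3 negative differences. Slc39a5, a zinc importer, fell from 70.1 to 12.2 CPM against 94.5 to 2.16 CPM, with no overlap at day 21 (difference 2.57 ± 0.29, adjusted p = 1.7e-09). Slc39a8, which carries zinc, manganese and cadmium into cells, stood at 31.7 and 31.5 CPM under exposure and rose from 30.2 to 38.7 CPM in controls (difference -0.49 ± 0.10, adjusted p = 0.00014). In the iron list 9 of 20 genes rose and 5 fell, and 5 differed upwards and 1 downwards, shares near those over all genes (36.7% and 36.9%, then 16.7% and 9.9%). Hamp, the iron hormone hepcidin, fell to a median of 0.0145 CPM under exposure from 0.796 CPM, and to 0.0739 CPM in controls from 12.6 CPM, and its difference missed the threshold (2.88 ± 1.48, adjusted p = 0.16). Hamp2, whose reads may be shared with Hamp, behaved alike (1.38 ± 1.05, adjusted p = 0.38). Erfe, the erythroblast hormone that lowers hepcidin, kept 1.18 CPM at day 21 against 0.0182 CPM, with no overlap.

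Hypoxia response genes rose for 15 of 20 and fell for 4 under exposure, against 11 and 4 in controls, and 7 differed upwards and 1 downwards (36.7% of all genes rose under exposure and 16.7% differed upwards). Ldha, lactate dehydrogenase, rose from 1120 to 2000 CPM under exposure and from 799 to 893 CPM in controls, with no overlap at day 21 (difference 0.65 ± 0.12, adjusted p = 3.9e-05). Adm, the vasodilator adrenomedullin, reached 5.14 CPM against 2.74 CPM, without overlap. Erythropoietin (Epo), named outside the rule because it drives red cell formation, rose from 0.16 to 1.59 CPM under exposure, while the control medians were 0.012 and 0 CPM (difference 3.58 ± 0.94, adjusted p = 0.0027). Among 14 genes of the NRF2 and oxidative stress list 9 rose and 4 fell in both groups (36.7% and 36.9% of all genes under exposure). In this list 4 differed upwards and 1 downwards, against 16.7% and 9.9% of all genes. Hmox1, which degrades haem, stood at 82.8 and 97.5 CPM under exposure and fell from 71.8 to 36.4 CPM in controls, and the day 21 doses did not overlap. Respiratory chain genes rose for 16 of 18 under exposure, by a median of 0.34, and for 18 of 18 in controls, by 0.65. A smaller rise under exposure was called for 15 and a larger one for none. Exposed livers started higher: the summed genes had medians of 5282 CPM in exposed and 4315 CPM in control newborns. At day 21 these were 6431 and 6684 CPM. Sdhb, a complex II subunit, rose by 0.63 ± 0.06 against 1.07 ± 0.06 (difference -0.44 ± 0.08, adjusted p = 2.7e-05). With library totals alone only 3 of these genes rose and 8 fell under exposure, so their direction with age depends on the scaling, while 13 of the differences were still called. In the females alone, with fewer libraries, 4 of the differences were called. Clock genes rose for 6 of 14 and fell for 2, and 1, Clock itself, differed.

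Among genes averaging 2 CPM or more at the age where they were higher, the largest rises under exposure included Cyp2c29, Mfsd2a, Nnmt, Mup3 and Sult1e1, with log2 changes from 9.42 to 11.09. Mfsd2a carries lysophospholipids, Nnmt methylates nicotinamide and Sult1e1 sulphates oestrogen. Of these 5 only Mup3 had a called difference. The largest falls were 4 stefins, protease inhibitors of myeloid cells, and 2 keratins of stratified epithelium. Stfa3 fell from 73.3 to 0.0181 CPM (-10.69 ± 0.21), against -11.02 ± 0.22 in controls. Stfa1, Stfa2 and Stfa2l1 fell with it, and reads of these close copies may be shared. Krt13 and Krt15 had medians of 0.0123 and 0.0192 CPM in exposed newborns and their highest values, 54.3 and 22.4 CPM, in female 13, the newborn library with muscle markers. The second highest Krt13 value was 42.7 CPM. Their ages overlapped, so these falls rest on a few newborn livers.

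The largest positive differences were Adm2, Epx, Myo16, Prg2, Fcnb and Lin28a. Adm2, a peptide hormone related to adrenomedullin, had 0 counts in all 12 control day 21 livers and 2106 counts in the exposed ones, which at the floor of 3 counts is at least 658-fold higher. Under exposure its levels at birth (0.309, 2.04 and 4.18 CPM) and day 21 (1.12, 2.72 and 6.88 CPM) overlapped. Fcnb, a ficolin of neutrophil precursors, kept 1.32 CPM against 0.0245 CPM. Lin28a, the RNA-binding protein of fetal timing, kept 0.125 CPM, while the 12 control livers together had 2 counts. The largest negative differences were Mup10, Mup22, Mup17, Sult3a1, Mup21 and Elovl3. Sult3a1, an amine sulfotransferase, stood at 0.0493 CPM in exposed day 21 livers against 5.72 CPM in controls, with no overlap (difference -6.32 ± 1.11, adjusted p = 1.8e-05).

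Few single genes set exposed females apart from exposed males. The test of a sex difference in the exposed change called 1 of 19811 genes (0.00505%) with edgeR, while 2004 genes (10.1%) had an unadjusted p under 0.05. That gene was Sat1, which breaks down polyamines and rose by 0.66 ± 0.11 more in females (adjusted p = 0.012). The count rested on tool and library: DESeq2 called 225 genes and limma-voom 199, and leaving out single exposed libraries gave from 1 to 182, with 182 without day 21 male 35, 136 without day 21 female 46 and 124 without newborn female 13. A p that misses the threshold does not show that the sexes acted alike.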

How the data were processed

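Per the labels' protocols, poly(A) RNA of flash-frozen livers was made into strand-marked libraries. The authors deposited raw read counts per gene for 48 libraries; the submitters' processing notes name FastQC, STAR, HTSeq and DESeq2, and for the build, annotation and counting strand, the setting is not given in the sources used here. Of 55487 gene identifiers, 346 had no symbol (0.0391% of counts). Totals were 57.5 to 91.4 M counts.

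With edgeR 4.0.16 (R 4.3.3), genes were kept by filterByExpr (minimum count 10, 19811 genes), scaled by TMM and fitted over all 48 libraries with age-by-dose groups and sex as covariate (robust quasi-likelihood test, Benjamini-Hochberg adjusted p under 0.05). Exposed, control and interaction contrasts came from this fit, the sex difference from 8 group means. Alternatives used DESeq2 1.42.0, limma 3.58.1 (voom), other scalings, filters and library subsets, and 2 subsets, without libraries that stood apart, were added after seeing the data. A control male titled PND0 but with a PND21 age label (replicate 3) was used as PND0.

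Members and gene lists were chosen with earlier results of these data known. Named genes were 19 anchors, the 6 largest rises and falls of the exposed change and of the difference (averaging 2 CPM or more in the group with the higher level), and up to 4 members per list with the smallest p in either comparison; Vwf, Cyp7a1 and Epo were named after their values were seen. On simulated counts for 19370 genes, 95.5% of 2-fold exposed changes and 85.1% of 2-fold differences were found, with 6.09% and 1.78% false calls. Few genes were changed there (67 by 2-fold, up or down), only in the exposed day 21 libraries. The other groups shared the same mean. In the data 73.5% of genes changed with age and the scaling factors differed between ages, so these rates do not carry over to it. A few named genes are not reported here.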

Additional observations from a re-analysis of the deposited data

Results flagged for a closer look

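In 80 tests of single libraries (20 values in each of 4 exposed groups of 6), 7 stood apart from the rest of their group by Dixon's criterion at 95%, which chance gives in about 1 in 20 groups. Newborn male 8 had 82000 CPM of Alb, where the other 5 males lay at 56300 to 63900, and 410 CPM of Alas2, where they lay at 195 to 256. It is also 1 of the newborn libraries low in fatty acid oxidation genes. Newborn male 12 had 9690 CPM of Cps1 (others 3580 to 5630) and 3.62 CPM of Hamp (others 0.0934 to 1.2). Newborn female 13, which carried muscle markers, had 457 CPM of Mki67 (others 307 to 351). Day 21 male 36 had 1020 CPM of Mt2 (others 394 to 609), and day 21 male 26 had 0.142 CPM of Hamp2 (others 0 to 0.0485).

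The change with age differed between exposed and control pups, by the interaction test, for 5261 genes. Among the anchor genes the log2 difference was 4.40 for H19, 3.85 for Igf2, 3.78 for Dlk1, 3.63 for Afp, 1.96 for Gpc3 and 0.54 for Plagl1. It was 1.94 for Cyp3a16 and -0.74 for Cyp2e1, 1.69 for Mki67, 1.06 for Alas2 and 0.70 for Clec4f, and 2.09 for Mt2 and 1.88 for Mt1. Between exposed females and males the change differed for Sat1, by 0.66.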

How the results depend on the processing

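No paired analysis was possible because no replicate number occurs in more than 1 library. The exposed count stayed within 1.5 times its value under all alternatives run (10779 to 17086 genes), as did the control count (11250 to 18462). The count of differences fell from 5261 to 2711 in the females alone and 2845 in the males alone, which have fewer samples. The sex difference, 1 gene, became 4 with RLE size factors, 178 with library totals alone, 199 with limma-voom, 225 with DESeq2 and 0 without the newborn libraries low in fatty acid oxidation genes. Leaving out each exposed library in turn gave 14487 to 14650 genes for exposed pups, 15452 to 15538 for controls, 4958 to 5675 for the difference and 1 to 182 for the sexes; the cause was not tested. Without control newborn male 3, whose age labels conflict, these were 14674, 15430, 5306 and 1. The small exposed rise of Slc10a1 reversed, to -0.09, with library totals alone.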
